A study of Mus musculus with 8 samples.

Results

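Genes of methionine, cysteine and one-carbon metabolism were examined in the livers of mice lacking both liver X receptors (LXRDKO) and of wild-type (WT) mice. They are 36 genes chosen by symbol for their place in these pathways, of 25010 genes in the deposited RNA-Seq table. All 36 were in the table and all 36 passed the filter on low values, a mean of at least 10 normalized counts over the 4 livers, together with 15578 genes in all. Left liver lobes of 2 WT C57BL/6 mice and 2 LXRDKO mice backcrossed to that strain gave the RNA, with 1 library for each mouse. Mice of both genotypes were 8 weeks old, ate standard chow and were killed after a fast of 4 to 6 h. LXRα and LXRβ were absent from the whole body of the LXRDKO mice and whole liver was sequenced, so neither the deletion nor the measurement was limited to hepatocytes. In whole tissue, fewer cells of a type and less RNA per cell cannot be told apart.

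Methionine is activated in the liver to S-adenosylmethionine (SAM), the methyl donor of most methyltransferases, and what remains after methyl transfer is hydrolysed to homocysteine. Homocysteine is either methylated back to methionine, with methyl groups from betaine or from the folate cycle, or passed through transsulfuration to cysteine. Cysteine is then built into glutathione or oxidized towards taurine and sulfate, while decarboxylated SAM feeds polyamine synthesis and its by-product is salvaged to methionine. Hepatocytes carry out most of these steps, and the liver form of methionine adenosyltransferase marks the differentiated hepatocyte.

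Between 55772659 and 72842744 reads per liver fell on genes, and the least abundant reading of any of the 36 genes rested on 88 reads. Values are normalized counts per gene, that is, reads scaled by the size factor of their library. Nr1h3, which encodes LXRα, had 5785 and 5322 normalized counts in WT livers against 1712 and 1826 in LXRDKO livers (log2 fold change −1.65, adjusted *P* = 0.0147, limma). Nr1h2, which encodes LXRβ, had 2987 and 3110 in WT against 925 and 1003 in LXRDKO (log2 fold change −1.66, adjusted *P* = 0.0147, limma). Reads of both genes were fewer in the livers labelled LXRDKO, and reads outside a deleted segment can still be counted.

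Got1, Sds, Cth, Mat1a, Cdo1 and Tat had more RNA in both LXRDKO livers than in either WT liver, and Gclc had less. Got1 alone passed the main test, limma on log2(normalized count + 1) with adjustment over all 15578 genes, where it was 1 up-regulated gene of 36 (2.78%) against 0.135% of all genes up-regulated. None of the 36 was down-regulated in that test, against 0.186% of all genes. With DESeq2 on the recovered reads, the tool that the authors used, 6 of the 36 genes (16.7%) were up-regulated, against 1.56% of all genes. By the same tool 1 of the 36 (2.78%), Gclc, was down-regulated, against 2.03% of all genes. At an unadjusted limma *P* under 0.05 there were 9 of the 36 (25.0%), against 13.3% of all genes. Of these 7 genes, Got1 alone was also called by the quasi-likelihood test of edgeR (adjusted *P* = 0.0422).

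The DESeq2 calls depended on the livers used, and the livers were left out 1 at a time to see how far. Got1 was called in each of the 4 runs. Cth was called in all but the run without LXRDKO replicate 2, and Mat1a and Tat were lost without WT replicate 1 or LXRDKO replicate 2. Cdo1 and Sds were lost without LXRDKO replicate 1 only, and Gclc without WT replicate 2 or LXRDKO replicate 2. Over the whole table DESeq2 called fewer genes in each of these runs than with all livers. Lost calls were thus not particular to the 36 genes. With limma, Bhmt, Cth and Got1 were called without WT replicate 1, Got1 and Sds without WT replicate 2, and none of the 36 without either LXRDKO liver. Over the whole table limma called more genes than with all livers in the runs without a WT liver, and fewer without an LXRDKO liver. The limma log2 fold changes of all 7 genes could not change sign in these runs, because their genotypes did not overlap. In size they were at least 0.44 for Tat and 0.53 for Mat1a, and at most −0.47 for Gclc.

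Values of both LXRDKO mice exceeded those of both WT mice for 13 of the 36 genes (36.1%), against 21.7% of all genes. Values of both were below for 9 (25.0%), against 23.0% of all genes. The remaining 14 genes overlapped between the genotypes. The median log2 fold change was 0.05 over the 36 genes and −0.005 over all genes, with 20 values above 0 and 16 below, from −0.58 for Gclc to 1.54 for Got1. The median of the 36 genes thus lay near that of all genes, and the larger differences were those of single genes.

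**Figure D1:**
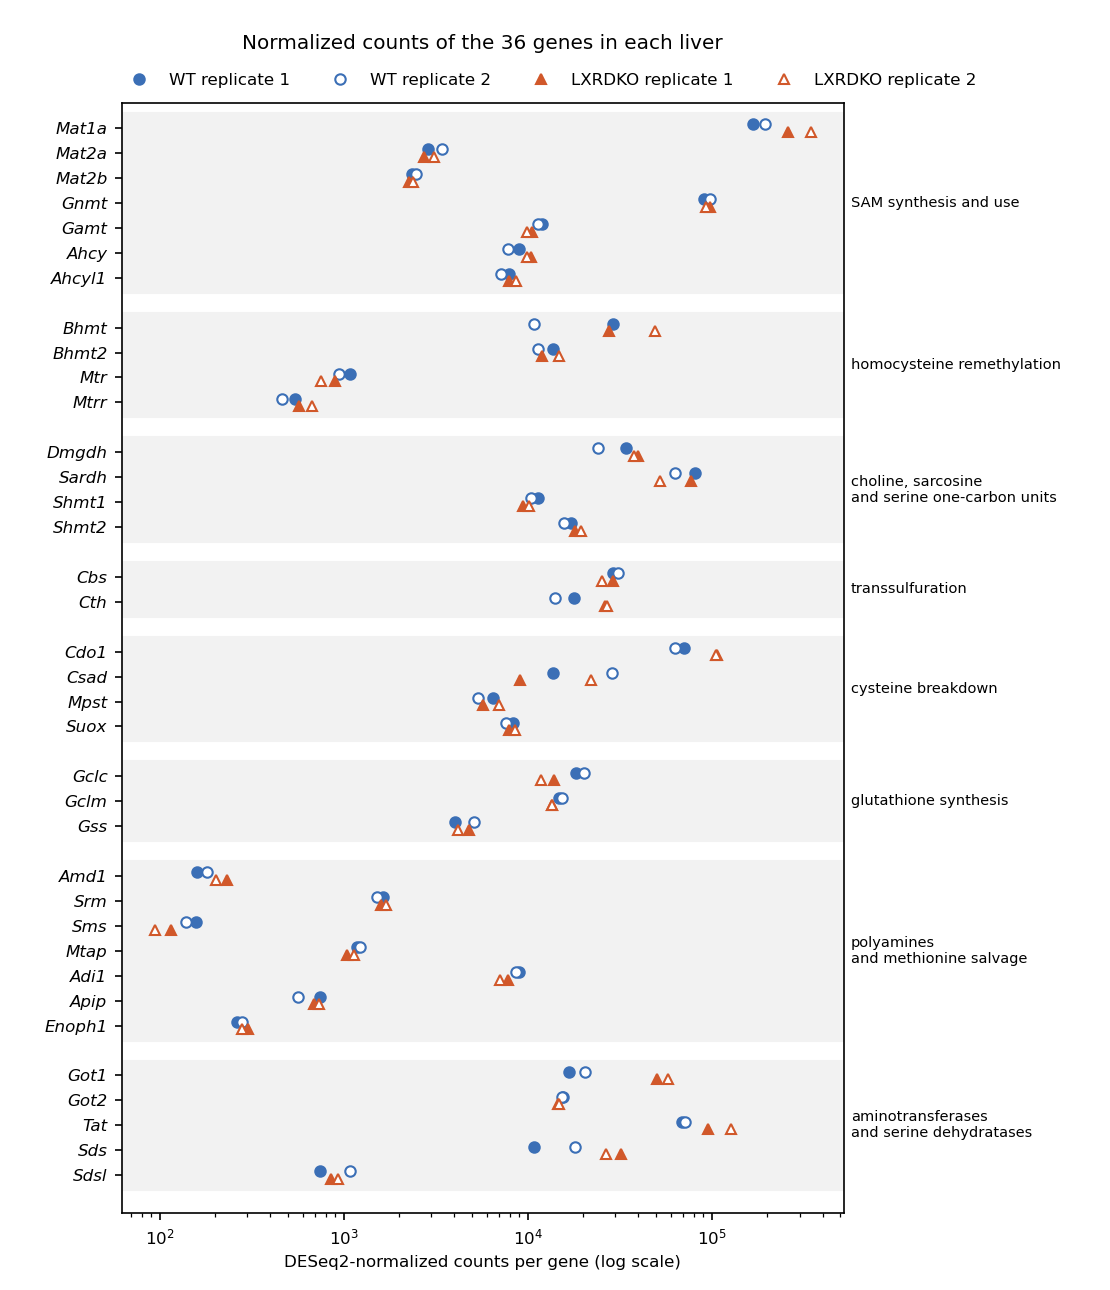
Normalized counts per gene (horizontal, log scale) of the 36 genes (vertical), 1 point per liver: filled and open circles are WT replicates 1 and 2, filled and open triangles LXRDKO replicates 1 and 2, and grey bands group genes by role. The triangles of Mat1a, Cth, Cdo1, Got1, Tat and Sds lie to the right of both circles, those of Gclc to the left, and Bhmt and Csad spread widely within a genotype.

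Summed over the 36 genes, the WT livers held 790399 and 792473 normalized counts and the LXRDKO livers 1000423 and 1120477. These sums were 1.24% and 1.28% of the counts of the WT livers and 1.66% and 1.86% of those of the LXRDKO livers, a ratio of mean sums of 1.34. Mat1a carried part of that difference, and without it the sums were 622221 and 596944 in WT against 739212 and 775125 in LXRDKO. The 29 genes called by neither tool together with Gclc, 30 in all, summed to 437132 and 408931 in WT against 427776 and 430801 in LXRDKO. That last pair of sums overlapped between genotypes, and it is a description only, since the 6 genes left out of it were left out for being higher.

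Aminotransferases and serine dehydratases held the largest of the differences, with 3 of 5 genes up-regulated by DESeq2, beside 1.56% of all genes. Got1 (ENSMUSG00000025190, chromosome 19, 43499752 to 43524605 on the minus strand of GRCm38) encodes the cytosolic aspartate aminotransferase, which also transaminates cysteine sulfinate. It had 16831 and 20585 normalized counts in WT livers against 50704 and 57568 in LXRDKO livers. The lower LXRDKO value exceeded the higher WT value by far more than 2 livers of 1 genotype differed. Its log2 fold change was 1.54 (standard error 0.14, 95% confidence interval 1.18 to 1.89), a ratio of means of 2.90, with an adjusted *P* of 0.0333 by limma and of 1.20e-18 by DESeq2. The limma call of Got1 was lost without either LXRDKO liver and without the variance trend, while its log2 fold change stayed between 1.39 and 1.68 with any 1 liver left out.

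Got2, the mitochondrial partner of Got1 in the malate-aspartate shuttle, showed no difference of that size. Got2 had 15590 and 15355 normalized counts in WT against 14649 and 14793 in LXRDKO, a log2 fold change of −0.07 (95% confidence interval −0.29 to 0.15). Of the 50-base stretches of Got2 exons, 25.6% also occur elsewhere among annotated exons, so the Got2 counts are uncertain. In the ratio of Got1 to Got2 counts the WT livers stood at 1.08 and 1.34 and the LXRDKO livers at 3.46 and 3.89. This ratio was 1 of 10 ratios of related genes that were compared over the livers with a two-sided exact permutation test, which at 2 against 2 cannot give less than *P* = 0.333. The value for Got1 to Got2 was that minimum (adjusted over the 10 ratios, 0.370, exact permutation test), with a log2 difference of 1.61.

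Tat (chromosome 8, 109990437 to 109999803, plus strand) encodes tyrosine aminotransferase, the first enzyme of tyrosine breakdown and a gene long known to be induced by glucocorticoids. Its counts were 69293 and 71976 in WT against 95645 and 127585 in LXRDKO, a log2 fold change of 0.65 (95% confidence interval 0.20 to 1.09, standard error 0.18, adjusted *P* = 0.242 by limma and 0.00675 by DESeq2). The WT livers were nearly equal, and the LXRDKO livers differed from each other by a factor of 1.33.

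Sds (chromosome 5, 120476526 to 120483932, plus strand) encodes serine dehydratase, which turns serine into pyruvate in the fasted liver. Counts of Sds were 10837 and 18030 in WT against 32104 and 26549 in LXRDKO. Here the WT livers differed by a factor of 1.66, and both stayed below the lower LXRDKO liver. The log2 fold change was 1.06 (standard error 0.25, 95% confidence interval 0.44 to 1.68, adjusted *P* = 0.189 by limma and 0.00118 by DESeq2), and 0.70 without WT replicate 1. Sdsl, a related gene whose start lies 3715 bases from that of Sds, had 748 and 1080 counts in WT against 853 and 938 in LXRDKO, and its genotypes overlapped. The ratio of Sds to Sdsl was 14.5 and 16.7 in WT against 37.6 and 28.3 in LXRDKO (exact permutation *P* = 0.333, the minimum). Sds shares 360 bases of exon with Plbd2 on the other strand, and whether reads were counted by strand is not stated. Plbd2 had 6888 and 7003 counts in WT against 7604 and 7324 in LXRDKO, a log2 fold change of 0.10. The antisense gene Gm15690 also overlaps Sds, with 43.3 and 78.9 counts in WT against 190 and 132 in LXRDKO. For Gm15690 the log2 fold change was 1.42 (adjusted *P* = 0.218 by limma and 0.0352 by DESeq2). The part of reads from shared exons in the Sds counts was not tested.

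The promoters of Got1, of its partner Got2 and of Tat are printed as the sequences beside this contrast between 1 up-regulated aminotransferase, a paralog whose groups differed by little, and a second gene up-regulated by DESeq2. They are RefSeq promoters of GRCm38.p6 covering 250 bases before to 50 bases after the start, 5′ to 3′ on the strand of the gene, at chr19:43524556-43524855 (minus strand) for Got1, chr8:95888352-95888651 (minus strand) for Got2 and chr8:109990186-109990485 (plus strand) for Tat. Capitals mark the letters CCAAT, the core of the box bound by NF-Y, or ATTGG where they lie on the opposite strand.
Got1: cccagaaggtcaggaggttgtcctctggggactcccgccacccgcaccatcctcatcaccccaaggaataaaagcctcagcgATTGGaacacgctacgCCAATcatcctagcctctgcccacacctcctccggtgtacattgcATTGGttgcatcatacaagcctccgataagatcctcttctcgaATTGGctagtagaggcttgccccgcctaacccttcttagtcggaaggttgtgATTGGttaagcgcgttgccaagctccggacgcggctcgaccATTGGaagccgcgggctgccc
Got2: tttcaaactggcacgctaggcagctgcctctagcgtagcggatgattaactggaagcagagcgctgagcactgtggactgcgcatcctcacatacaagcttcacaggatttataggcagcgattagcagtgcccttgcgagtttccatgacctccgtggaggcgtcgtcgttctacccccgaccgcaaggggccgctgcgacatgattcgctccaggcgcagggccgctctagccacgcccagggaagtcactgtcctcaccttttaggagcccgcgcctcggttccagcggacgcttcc
Tat: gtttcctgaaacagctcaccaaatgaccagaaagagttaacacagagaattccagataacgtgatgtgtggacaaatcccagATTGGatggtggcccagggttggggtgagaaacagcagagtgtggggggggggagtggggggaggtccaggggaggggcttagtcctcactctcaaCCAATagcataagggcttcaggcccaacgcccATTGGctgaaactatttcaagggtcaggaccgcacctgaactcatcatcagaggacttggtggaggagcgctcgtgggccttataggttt
The Got1 promoter held 6 copies on either strand, at −168, −152, −107, −64, −12 and 29 bases from the start, a number that 0.0791% of all 32851 promoters reach. The Tat promoter held 3, at −168, −72 and −40, as 3.37% of all promoters do or exceed, and the Got2 promoter held 0. CCAAT was singled out after the matches were seen, and each match is a description of letters rather than a bound site. The paper had already named Got1 as a gene with NF-Y motifs in its promoter. It reports the mean accessibility of that promoter as higher in LXRDKO liver. The motif count of the paper came from a different search and is not compared here.

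Of the 36 genes, 28 matched 35 promoters. Adi1, Cdo1, Cth, Gclc, Mat1a, Sds, Sdsl and Srm had no entry. Of the genes called by limma or DESeq2, only Got1 and Tat thus had a promoter to read. CCAAT on either strand was present in 19 of the 35 promoters (54.3%) and in 37.4% of all promoters. All of these except the Got1 and Tat promoters belonged to genes called by neither tool. Among them, the promoters of Bhmt, Cbs and Mtr held 2 copies each. The cAMP response half-site TGACG was in 9 of the 35 (20.8% of all promoters), the nuclear receptor half-site AGGTCA in 8 (16.3%), the glucocorticoid response half-site AGAACA in 4 (19.0%), and the E-box CACGTG in 3 (7.15%). The antioxidant response core TGACNNNGC was in 3, among them Gclm (12.4% of all promoters). Forkhead letters TGTTTAC and the ATF4 composite TGATGNAAT were in 0 of the 35, against 3.65% and 0.965% of all. All were sought on both strands, and genes with several starts were counted once for each promoter.

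Of the 7 genes of SAM synthesis and use, 1 was up-regulated by DESeq2, 3 were higher without overlap, 1 was lower and 3 overlapped, where 1.56%, 21.7% and 23.0% of all genes were up-regulated, higher and lower. Mat1a (chromosome 14, 41105035 to 41124412, plus strand) encodes the adenosyltransferase of the adult liver, which makes SAM. Its normalized counts were 168178 and 195529 in WT against 261210 and 345351 in LXRDKO. Both LXRDKO values were above both WT values, with a factor of 1.32 between the LXRDKO livers themselves. The log2 fold change of Mat1a was 0.73 (standard error 0.23, 95% confidence interval 0.17 to 1.29), with an adjusted *P* of 0.284 by limma and 0.00244 by DESeq2. Per kilobase of exon, its level ranked 49 among all genes tested in WT, so this was a difference in 1 of the most abundant RNAs of the liver.

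Mat2a, the adenosyltransferase of most other tissues and of dividing hepatocytes, had 2872 and 3441 counts in WT against 2718 and 3082 in LXRDKO. Its genotypes overlapped, as did those of Mat2b, which encodes the regulatory subunit of the Mat2a enzyme. Of the 50-base stretches of Mat2a exons, 14.2% also occur in exons of other genes, so the Mat2a counts are uncertain. The main one is Particl, which shares 508 bases of exon with Mat2a on the other strand. The ratio of Mat1a to Mat2a counts was 58.5 and 56.8 in WT against 96.1 and 112 in LXRDKO (exact permutation *P* = 0.333, the minimum). The 2 WT ratios differed by less than those of the LXRDKO livers, and the ratio did not overlap between genotypes.

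Gnmt, the glycine methyltransferase that disposes of excess methyl groups, ranked 37 per kilobase in WT and was the most abundant of the 36 genes on that scale. Its counts were 90586 and 97591 in WT against 97405 and 92564 in LXRDKO, a log2 fold change of 0.01 (95% confidence interval −0.33 to 0.36). Ahcy, which hydrolyses S-adenosylhomocysteine, had 8996 and 7834 counts in WT against 10442 and 9948 in LXRDKO. For Ahcy the log2 fold change was 0.28 (95% confidence interval 0.02 to 0.54), which failed the adjustment (adjusted *P* = 0.345 by limma and 0.446 by DESeq2). Of the 50-base stretches of Ahcy exons, 68.7% also occur elsewhere among annotated exons, so its counts are uncertain. Ahcyl1, a relative of Ahcy known for regulating calcium channels, was also higher without overlap, and Gamt, which methylates guanidinoacetate to creatine, was lower, with log2 fold changes of 0.14 and −0.19.

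**Figure D2:**
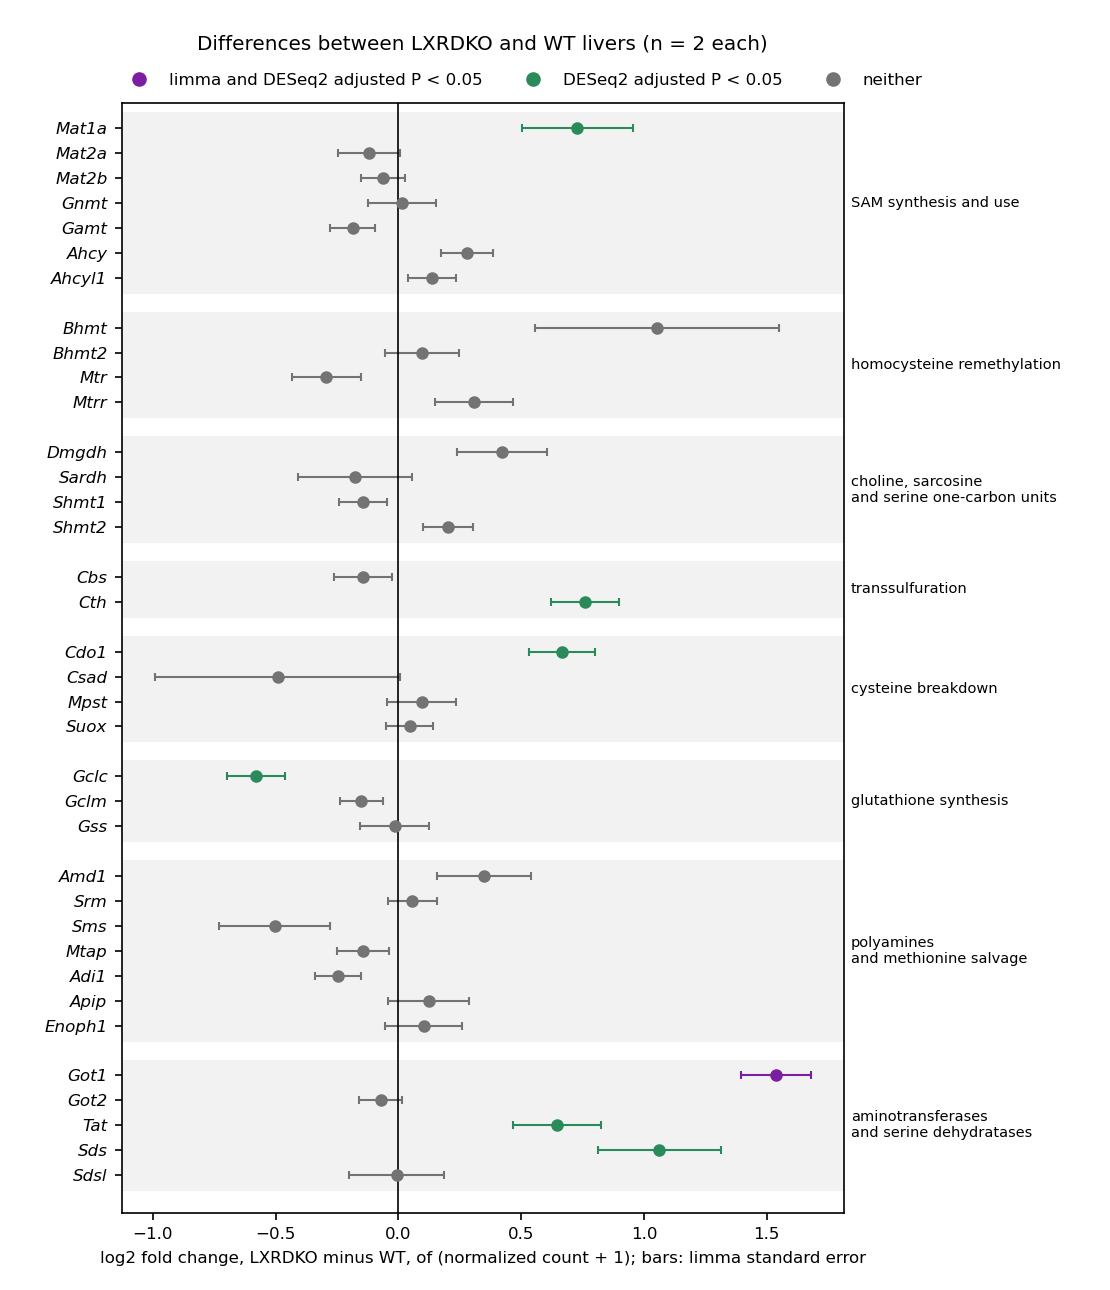
Log2 fold change, LXRDKO minus WT, of log2(normalized count + 1) (horizontal) for the 36 genes (vertical) in their role groups, with bars of 1 limma standard error and 2 livers per genotype; purple marks an adjusted P under 0.05 by limma and DESeq2, green by DESeq2 only, grey by neither. Got1 at 1.54 stands farthest to the right and Gclc at −0.58 farthest to the left, and the bars of Bhmt and Csad are the widest.

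Homocysteine remethylation held 4 genes, none of which was called by either tool, where DESeq2 called 1.56% of all genes up-regulated and 2.03% down-regulated. Without overlap 1 of the 4 was higher and 1 lower, beside 21.7% and 23.0% of all genes. Bhmt, the betaine-homocysteine methyltransferase, had counts of 28972 and 10852 in WT against 27680 and 49034 in LXRDKO. The WT livers differed by a factor of 2.67 and the genotypes overlapped. Its log2 fold change of 1.05 had a confidence interval from −0.18 to 2.29 (adjusted *P* = 0.437 by limma and 0.850 by DESeq2). It came to 1.76 when WT replicate 1 was left out and to 0.35 when WT replicate 2 was. Spread between livers of 1 genotype was higher for Bhmt than for 96.6% of all genes tested. Of the 50-base stretches of Bhmt exons, 26.1% also occur elsewhere among annotated exons, so the Bhmt counts are uncertain.

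Bhmt2, which uses S-methylmethionine as methyl donor, had 13687 and 11403 counts in WT against 11969 and 14888 in LXRDKO and overlapped. Mtr, the cobalamin-dependent methionine synthase of the folate route, had 1077 and 944 in WT against 898 and 754 in LXRDKO. Mtrr, the reductase that reactivates it, had 545 and 461 in WT against 570 and 676 in LXRDKO. Mtr and Mtrr were thus the 1 lower and the 1 higher gene of this group. Their log2 fold changes of −0.29 and 0.31 failed the test (adjusted *P* = 0.447 and 0.479, limma). The ratio of Mtr to Bhmt was 0.0372 and 0.0871 in WT against 0.0325 and 0.0154 in LXRDKO, which did not overlap, though the WT values differed more from each other than the nearest values of the 2 genotypes did.

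In the group that yields one-carbon units from choline, sarcosine and serine, 2 of 4 genes were higher without overlap and 1 was lower, beside 21.7% and 23.0% of all genes, and none was called by either tool. Dmgdh, which demethylates dimethylglycine in mitochondria, had 34388 and 24188 counts in WT against 39710 and 37662 in LXRDKO. Its log2 fold change was 0.42 (95% confidence interval −0.03 to 0.88, adjusted *P* = 0.401 by limma and 0.358 by DESeq2), and of the runs tried DESeq2 called it only when the higher WT liver, replicate 1, was left out. Sardh, the next enzyme, had 81022 and 63029 in WT against 76713 and 52115 in LXRDKO and overlapped.

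Shmt1 and Shmt2, the cytosolic and mitochondrial serine hydroxymethyltransferases, differed from WT in opposite directions by small amounts. Shmt1 had 11379 and 10365 counts in WT against 9487 and 10172 in LXRDKO, and Shmt2 had 17131 and 15726 in WT against 18161 and 19603 in LXRDKO. Their log2 fold changes were −0.14 and 0.20, with adjusted *P* values of 0.608 and 0.476 by limma. Their ratio was steady within a genotype, at 0.664 and 0.659 in WT against 0.522 and 0.519 in LXRDKO. The log2 difference of the ratio was −0.35 against a pooled standard deviation of 0.0074 between livers of 1 genotype (exact permutation *P* = 0.333, the minimum). Of the 10 ratios this one had the smallest spread within genotypes.

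The 2 transsulfuration genes, which act in sequence, parted. Cth (chromosome 3, 157894248 to 157925077, minus strand) encodes cystathionine gamma-lyase, which releases cysteine. Cth had 17795 and 13990 counts in WT against 26354 and 27119 in LXRDKO, well apart and with nearly equal LXRDKO livers. The log2 fold change was 0.76 (standard error 0.14, 95% confidence interval 0.42 to 1.11, adjusted *P* = 0.127 by limma and 3.30e-04 by DESeq2). Cbs, cystathionine beta-synthase, which commits homocysteine to this route, had 29183 and 30850 in WT against 29209 and 25230 in LXRDKO, a log2 fold change of −0.14 (95% confidence interval −0.44 to 0.15). The ratio of Cbs to Cth counts was 1.64 and 2.21 in WT against 1.11 and 0.930 in LXRDKO (exact permutation *P* = 0.333, the minimum).

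**Figure D3:**
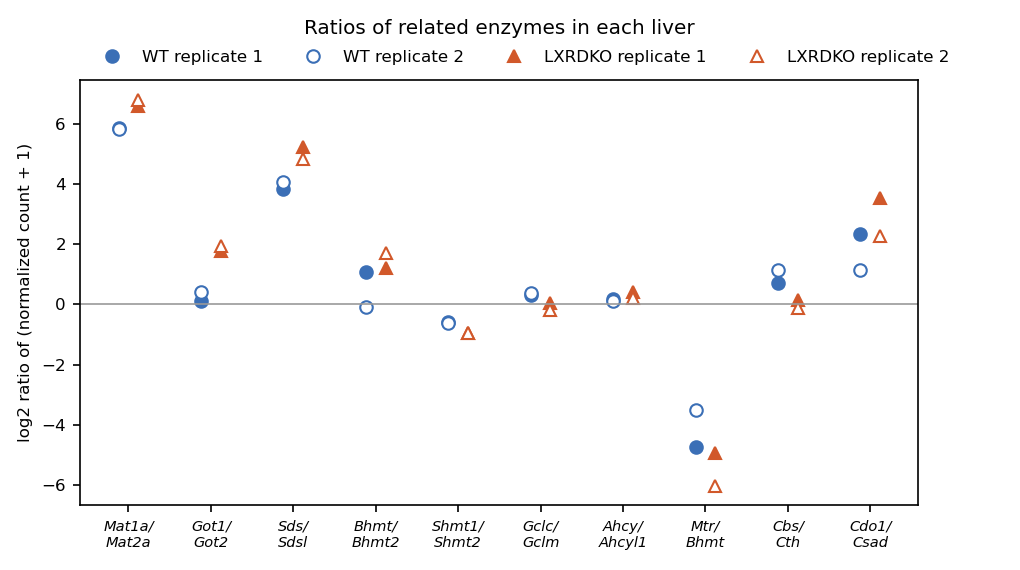
Log2 ratio of normalized counts plus 1 (vertical) for 10 pairs of related genes (horizontal), 1 point per liver: circles are the WT and triangles the LXRDKO livers, filled for replicate 1 and open for replicate 2. The ratios of Got1 to Got2 and of Mat1a to Mat2a lie higher in both LXRDKO livers, those of Cbs to Cth, Gclc to Gclm and Shmt1 to Shmt2 lie lower, and only the ratio of Cdo1 to Csad overlaps. Each ratio without overlap has P = 0.333 (exact permutation test), the least possible at 2 against 2. Ratios that hold Got1, Mat1a, Sds, Cth or Gclc partly restate the DESeq2 calls of these genes.

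Cysteine breakdown held 1 up-regulated gene of 4 by DESeq2, beside 1.56% of all genes, and the other 3 overlapped. Cdo1 encodes cysteine dioxygenase, which oxidizes cysteine to cysteine sulfinate and ranked 65 per kilobase in WT. It had 70333 and 63433 counts in WT against 106630 and 105504 in LXRDKO. Both genotypes were tight, and the gap between them was several times the difference between livers of either. For Cdo1 the log2 fold change was 0.67 (standard error 0.14, 95% confidence interval 0.33 to 1.00), with an adjusted *P* of 0.145 by limma and 3.96e-05 by DESeq2. The limma standard error is moderated towards the spread of genes of like abundance, and Cdo1 itself varied less between livers of 1 genotype than most genes did, at percentile 20.2.

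Csad, which decarboxylates cysteine sulfinate on the way to taurine, was the least stable gene of the 36 between livers of 1 genotype, at percentile 96.7 of all genes tested. Its counts were 13796 and 28661 in WT against 9090 and 21986 in LXRDKO, a log2 fold change of −0.49 with a confidence interval from −1.73 to 0.75. The ratio of Cdo1 to Csad was 5.10 and 2.21 in WT against 11.7 and 4.80 in LXRDKO, and overlapped (exact permutation *P* = 0.667). Mpst, a sulfurtransferase that yields hydrogen sulfide, and Suox, which oxidizes sulfite to sulfate, had log2 fold changes of 0.09 and 0.05 and overlapped.

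Glutathione synthesis held 1 down-regulated gene of 3 by DESeq2, beside 2.03% of all genes. Gclc (chromosome 9, 77754535 to 77794485, plus strand) encodes the catalytic subunit of glutamate-cysteine ligase, the rate-limiting enzyme of the route. Its counts were 18286 and 20110 in WT against 13856 and 11855 in LXRDKO, and the genotypes stood apart. The log2 fold change was −0.58 (standard error 0.12, 95% confidence interval −0.87 to −0.29, adjusted *P* = 0.145 by limma and 0.00509 by DESeq2). Gclm, the modifier subunit, had 14708 and 15363 in WT against 13473 and 13611 in LXRDKO, also lower without overlap but by less, and its log2 difference was −0.15 (adjusted *P* = 0.550, limma). The ratio of Gclc to Gclm was 1.24 and 1.31 in WT against 1.03 and 0.871 in LXRDKO (exact permutation *P* = 0.333, the minimum). Gss, glutathione synthetase, had 4045 and 5094 in WT against 4796 and 4207 in LXRDKO and overlapped. Of the 50-base stretches of Gss exons, 10.3% also occur in exons of Acss2, Gssos1 or Gssos2, which overlap Gss on the other strand.

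Polyamine synthesis and methionine salvage held 7 genes, none called by either tool, with 2 higher and 3 lower without overlap, where 21.7% and 23.0% of all genes were. Sms, spermine synthase, had 159 and 138 counts in WT against 115 and 94.3 in LXRDKO, the largest difference of the group at a log2 fold change of −0.50 (95% confidence interval −1.07 to 0.06). Amd1, which decarboxylates SAM, had 160 and 182 in WT against 232 and 204 in LXRDKO, a log2 fold change of 0.35 (95% confidence interval −0.12 to 0.82). These were the 2 least abundant genes of the 36 per kilobase. Of the 50-base stretches of Amd1 exons, 78.1% occur elsewhere among annotated exons, among them in Amd2, and of Sms 17.5%, so both counts are uncertain.

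Srm, spermidine synthase, overlapped. In the salvage of methylthioadenosine, Mtap, the phosphorylase that opens the pathway, and Adi1, a dioxygenase near its end, were lower without overlap, with log2 fold changes of −0.14 and −0.25. Adi1 had 9027 and 8636 counts in WT against 7780 and 7115 in LXRDKO (95% confidence interval −0.48 to −0.02, adjusted *P* = 0.349, limma). Apip overlapped and Enoph1 was higher by 0.10 on the log2 scale, with 262 and 280 counts in WT against 302 and 281 in LXRDKO. The nearest livers of Enoph1 were thus less than 1 count apart.

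**Figure D4:**
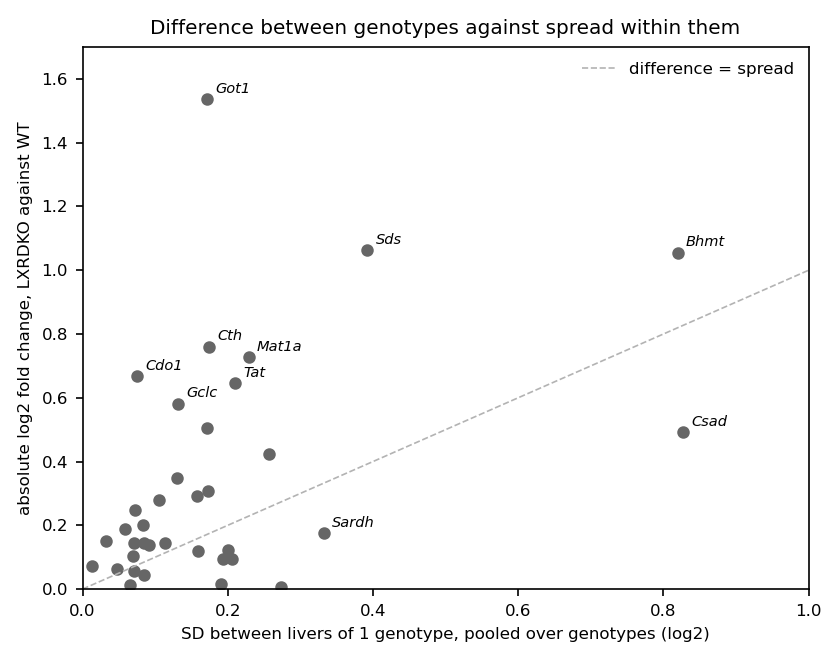
Absolute log2 fold change between genotypes (vertical) against the standard deviation between livers of 1 genotype, pooled over genotypes (horizontal, log2), 1 point for each of the 36 genes; on the dashed line the difference equals the spread. Got1 lies highest at 1.54, Cdo1 far left of genes with a like difference, and Bhmt and Csad far right, with Csad below the line.

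Spread between livers was ordinary for the group as a whole. Of the 36 genes, 18 varied more between livers of 1 genotype than the median gene tested, whose pooled standard deviation was 0.157 on the log2 scale. The median of the 36 log2 differences between livers of 1 genotype was −0.07 for WT and 0.05 for LXRDKO, about as large as the median of 0.05 between genotypes. The 29 genes called by neither tool had log2 fold changes from −0.50 to 1.05, 14 above 0 and 15 below, with no adjusted *P* under 0.345 by limma or 0.358 by DESeq2. By level per kilobase in WT, 4 of the 36 were among the top 100 genes tested, 14 among the top 500 and 23 among the top 1000. Up-regulated and uncalled genes were both found at high levels, Gnmt and Mat1a being neighbours in this respect.

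Genes beside these pathways were read in 7 further lists holding 95 genes, of which 86 were tested: the folate cycle, glycine cleavage and serine synthesis, choline and methyl acceptors, cobalamin handling, sulfur oxidation, glutathione turnover and polyamine turnover. Called by DESeq2, 2 of the 86 were up-regulated and 5 down-regulated, none by limma, and 16 were higher and 33 lower without overlap, with a median log2 fold change of −0.03. Over all genes the shares were 1.56% and 2.03% called by DESeq2 and 21.7% higher and 23.0% lower without overlap. Inmt, an indolethylamine methyltransferase, had 32573 and 46309 counts in WT against 13831 and 11776 in LXRDKO, a log2 fold change of −1.61 (adjusted *P* = 0.0585 by limma and 1.45e-13 by DESeq2). Nnmt, which methylates nicotinamide, had 5930 and 4367 in WT against 9966 and 11756 in LXRDKO, a log2 fold change of 1.09 (adjusted *P* = 0.0988 by limma and 2.72e-06 by DESeq2). Both take their methyl group from SAM, and they differed from WT in opposite directions.

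Gatm, which makes the guanidinoacetate that Gamt methylates, had 350 and 446 counts in WT against 171 and 169 in LXRDKO, a log2 fold change of −1.21 (adjusted *P* = 1.25e-04 by DESeq2). The choline and methyl acceptor list had the lowest median of the 7, −0.30, with 7 of 11 genes lower without overlap. The other called genes were Paox, a polyamine oxidase (−0.86), Glyat, which conjugates glycine to acyl groups (−0.45), Ggt5, a member of the gamma-glutamyltransferase family (1.19), and Folr2 (−2.61), each given as its log2 fold change. Folr2, a folate receptor also known as a macrophage gene, had 350 and 259 counts in WT against 62.6 and 37.5 in LXRDKO. Of the cobalamin and sulfur oxidation lists, 8 and 12 genes were tested and none was called by either tool.

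**Figure D5:**
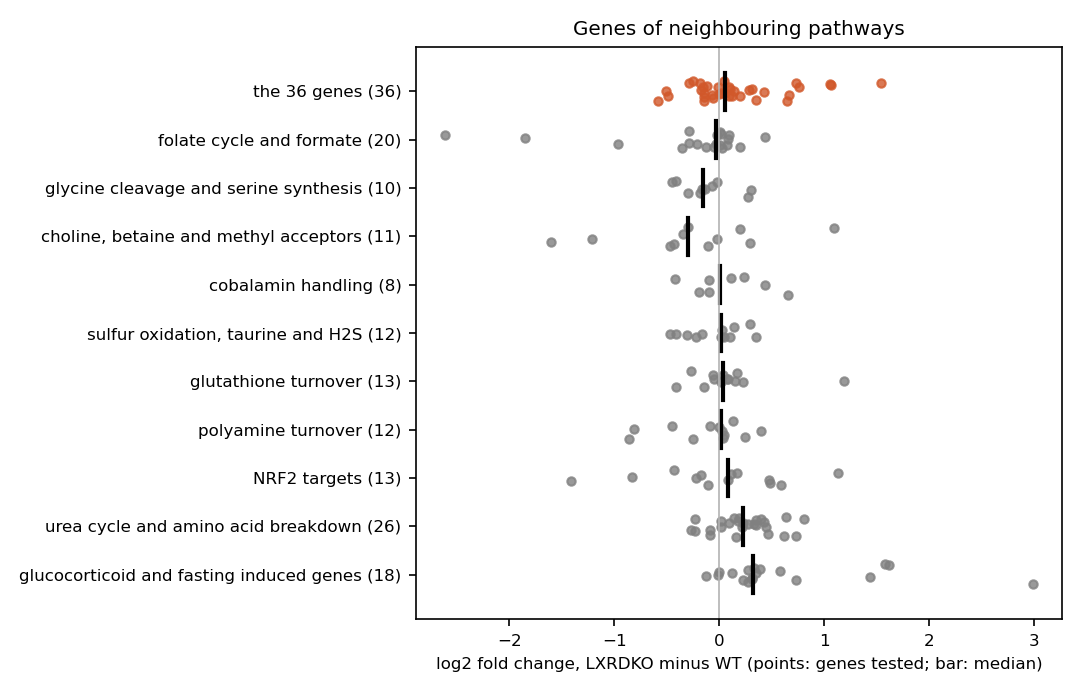
Log2 fold change, LXRDKO minus WT (horizontal), of the tested genes of each list (vertical, number tested in parentheses), 1 point per gene, orange for the 36 genes, with a black bar at the median. The medians of the 36 genes and of the one-carbon and sulfur lists lie between −0.30 and 0.05, and those of urea cycle and glucocorticoid induced genes at 0.22 and 0.32.

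Lists of genes under shared controls were set beside these results. Of 26 genes of the urea cycle and amino acid breakdown, 17 were higher without overlap and 3 lower, with a median of 0.22 and 4 up-regulated by DESeq2, namely Asl, Tdo2, Slc25a15 and Gpt2, beside 21.7%, 23.0% and 1.56% of all genes. Asl, argininosuccinate lyase, had 38156 and 37829 counts in WT against 63632 and 69500 in LXRDKO. Of 18 genes induced by glucocorticoids and fasting, 11 were higher without overlap and none lower, with a median of 0.32, and 3 were up-regulated by DESeq2, Zbtb16, Fkbp5 and Tdo2, beside the same shares of all genes. Fkbp5, which encodes a co-chaperone of the glucocorticoid receptor, had 6870 and 6116 counts in WT against 19131 and 16133 in LXRDKO (log2 fold change 1.44, adjusted *P* = 0.0257 by limma). Of 13 targets of NRF2, the factor known for inducing Gclc and Gclm, 4 were lower without overlap, 1 was higher, and DESeq2 called Me1 and Osgin1 down-regulated, with a median of 0.08 (all genes: 23.0% lower, 21.7% higher, 2.03% called down). The part of these programs in the values of the 36 genes was not tested.

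Markers of the cells in the tissue were counted in the same way, beside 21.7% of all genes higher and 23.0% lower without overlap. Of 6 general hepatocyte markers tested, none was called by either tool. Of 10 periportal markers 4 were higher and 1 lower without overlap, with Sds itself among them, and the median was 0.10. DESeq2 called 2 of the periportal markers up-regulated, Sds and Etnppl, beside 1.56% of all genes. Of 10 pericentral markers 5 were higher and none lower, with a median of 0.47, and none was called by either tool. Of 12 Kupffer cell and macrophage markers, DESeq2 called 6 down-regulated (2.03% of all genes) and limma 4 (0.186% of all genes). Summed counts of these markers were 16646 and 18434 in WT against 11766 and 6994 in LXRDKO. Among them Cd5l stood at 11.4 and 12.9 counts in LXRDKO and Timd4 at 4.75 and 0, while Csf1r and the C1q genes overlapped. Of 8 sinusoidal endothelial markers 5 were lower and none higher without overlap, with a median of −0.40, and Kdr was down-regulated by limma and DESeq2, with 2447 and 2164 counts in WT against 1116 and 934 in LXRDKO. Of 9 lymphocyte and neutrophil markers 6 were lower and none higher without overlap, with a median of −0.91, and none was called by either tool. These markers were low, and all 11 listed summed to only 217 and 358 counts in WT against 155 and 133 in LXRDKO. Summed biliary markers had 2118 and 3661 counts in WT against 4675 and 5528 in LXRDKO, with all 7 higher without overlap. All 8 stellate markers were above WT on average, 5 of them without overlap. DESeq2 called 1 biliary marker, Epcam, and 2 stellate markers, Dcn and Reln, up-regulated, beside 1.56% of all genes. The part of these differences in the values of the 36 genes was not tested.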

How the data were processed

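RNA-Seq of the left liver lobe of 2 WT and 2 LXRDKO mice was analysed, 1 library per mouse. Per the paper's methods, polyadenylated RNA was prepared with a KAPA Stranded kit and read as single-end 50 bp reads on a HiSeq3000. The authors checked reads with FastQC, aligned them to mm10 with STAR 2.6.0c, tested genes with DESeq2 and named them with biomaRt. The counting tool, its strand setting and the annotation release are not given in the sources used here. The deposited values are a signal normalized by the authors before they were deposited, namely the reads of each gene divided by the DESeq2 size factor of its library. Dividing out these factors (0.877 and 1.18 in WT, 1.05 and 0.933 in LXRDKO) recovered whole reads for 100% of the values at a tolerance of 0.01.

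Log2(normalized count + 1) was compared with limma 3.58.1 in R 4.3.3 with a variance trend for the 15578 genes whose mean was 10 normalized counts or more, and *P* values were adjusted by Benjamini-Hochberg at a threshold of 0.05. This scale understates fold changes of low genes, and all *P* values rest on spread that limma shares across genes. DESeq2 1.42.0 tested 15797 genes on the recovered reads and edgeR 4.0.16 the filtered genes. The tests were tried on simulated data with known changes. Replicate numbers do not pair the mice. Gene positions came from GENCODE M21, to which 24987 of 25010 identifiers matched. Alternatives were other pseudocounts (0.5 and 8), the filter removed or raised to 50, other scalings, limma with robust moderation or with no trend, the replicate block, a threshold of 0.10 and leaving out each liver.

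The 36 genes, the further lists and the markers were chosen with earlier results of these data known, and the pathway itself was drawn from the study of the same samples, so counts over them are no independent evidence. Genes called by either tool are given in full, as are those apart by at least 0.3 on the log2 scale and the largest difference of each role, and the rest by counts. At most 4 called genes were named from each further list. Chromatin accessibility of the same mice, 4 of 8 samples, was not analysed here.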

Additional observations from a re-analysis of the deposited data

How the results depend on the processing

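With 2 mice per genotype, calls depended on the test more than directions did. Over all genes, 21 genes rose and 29 fell at an adjusted P under 0.05 by limma, and these counts became 10 and 15 with the filter raised to a mean of 50 counts, 0 and 1 without the trend, 55 and 83 at a threshold of 0.10, and 246 and 321 with DESeq2. Of the 36 genes, 1 rose by limma, 0 without the trend and 6 with DESeq2, which also called 1 lower. Scaling to the library total gave the 36 genes a median log2 fold change of 0.11, with a median over all genes of 0.05, and turned Gss to 0.0395 and Sdsl to 0.0478. With 1 liver left out, between 0 and 134 genes rose and between 2 and 128 fell over all genes, 0 to 3 of the 36 rose by limma, 3 to 6 rose and 0 to 1 fell by DESeq2, the median ran from 0.0231 to 0.102, and 11 to 16 of the 36 were lower without overlap, where a lone liver makes overlap rarer. In these runs 10 uncalled genes changed sign, with log2 fold changes from −0.25 to 0.011 for Mat2a, −0.0395 to 0.0679 for Gnmt, −0.0618 to 0.25 for Bhmt2, −0.46 to 0.10 for Sardh, −1.13 to 0.14 for Csad, −0.0468 to 0.24 for Mpst, −0.0162 to 0.11 for Suox, −0.18 to 0.15 for Gss, −0.0714 to 0.32 for Apip and −0.27 to 0.26 for Sdsl. A run that leaves a genotype with 1 liver assumes that this liver varies like the others. The cause of these shifts was not tested. With 1 liver left out, the log2 difference of the ratio ran from 0.51 to 1.80 for Cdo1 to Csad, 0.38 to 1.54 for Bhmt to Bhmt2 and −1.96 to −0.73 for Mtr to Bhmt.

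The titles give replicates 1 and 2 in both genotypes, while the mice carry numbers of their own. The correlation of the deviations of same-numbered mice was 0.0031, so the numbers were not taken to pair the mice. With the replicate block 35 genes rose and 55 fell by limma, Got1 among them, and DESeq2 called 432 genes, with 6 of the 36 higher and 1 lower as without it. The DESeq2 runs with the block and with 1 liver left out were chosen after seeing the data.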
